A study of Mus musculus with 6 samples.

Results

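The genes described here are 36 lysosomal genes of the mouse, found by their symbols in the expression tables of 6 RNA sequencing libraries, 3 labelled WT and 3 labelled KO. All 36 were among the 21399 genes listed. They encode 15 subunits and accessory proteins of the vacuolar proton pump, 8 glycosidases, 3 lipid hydrolases, 4 activator and other luminal proteins, 3 membrane proteins and 3 transcription factors of the MiT/TFE family. Cathepsins were left out by the rule. Primary microglia, the resident macrophages of the brain, were taken from CD45.2 mice of the WT or the KO genotype and exposed to oxygen-glucose deprivation, a culture model of ischaemia. Both groups were then reoxygenated together with peritoneal macrophages of CD45.1 mice, so that the groups differ, per the labels, in the genotype of the microglia alone. Which gene was deleted, with what driver and in mice of what age or number is not stated in the labels. PPARα, a nuclear receptor that controls fatty acid metabolism, is named in the title of the series. The design text calls the sorted cells microglia yet marks them CD45.1, the form assigned to the added macrophages. No label ties the libraries of a group to different cultures or animals. The p-values therefore reflect the variation among libraries, part or all of which may be technical.

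The lysosome is the degradative compartment of the cell and is prominent in phagocytes such as microglia and macrophages. Its vacuolar proton pump couples ATP hydrolysis by the cytosolic V1 sector to proton transport through the membrane-bound V0 sector, and the acid it makes is what the luminal hydrolases need. TFEB, TFE3 and MITF are related transcription factors that enter the nucleus when nutrient signalling at the lysosome falls, bind a motif with the core CACGTG and activate genes of lysosomes and autophagy.

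Values are FPKM, fragments per kilobase of transcript scaled to library depth, which allow levels of different genes to be compared. The reads recovered from them summed to between 34541898 and 38092201 per library. Ppara held 11, 1 and 2 reads in the WT-labelled libraries 1 to 3 and 13, 23 and 10 reads in the KO-labelled libraries, so its level was not lower in the KO-labelled libraries. Libraries are therefore named by their labels throughout. Microglia markers were low: Sall1 reached at most 0.152 FPKM and was listed at 0 in 3 libraries, P2ry12 reached at most 1.09 FPKM and Tmem119 at most 2.43 FPKM. The summed level of 10 B cell markers lay between 5065 and 5776 FPKM in the WT-labelled and between 4471 and 4864 FPKM in the KO-labelled libraries. That of 13 macrophage markers lay between 1374 and 4045 FPKM and between 5010 and 11590 FPKM, and no macrophage marker was at 0 in any library.

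Most of these lysosomal genes had higher mean levels in the KO-labelled libraries, and none passed the test. Of the 36, 35 had a mean of at least 1 FPKM and were tested, and the other, Atp6v0d2, was too low. Differences are given as KO minus WT on log2(FPKM + 1). By limma with adjustment over all 10732 genes tested, 0 of the 35 were called higher, where 0.028% of all genes were (3 genes), and 0 were called lower, where 0% of all genes were. The smallest adjusted p of a member was 0.0971, for Galc. The difference was above 0 for 31 of 35 (88.6%), beside 35.4% of all genes tested, and its median was 0.36, beside -0.06 over all genes tested. Voom, a count-based version of limma run on the recovered reads, also called 0 members.

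At an unadjusted limma p under 0.05, 15 members were higher and 0 lower, which is 42.9% of the members tested beside 8.86% of all genes for higher values and 8.21% for lower values. The 3 libraries labelled KO lay above the 3 labelled WT for 16 members (45.7%), beside 9.75% of all genes tested, and below them for 1 member, beside 15.2%. These shares describe the list and were not tested as a set. Mitf entered the test only through the KO-labelled libraries, since its mean in the WT-labelled ones was 0.635 FPKM. The gap between the groups was small for some of the 16: the lowest KO-labelled library exceeded the highest WT-labelled one by 0.112% for Grn, 1.02% for Atp6v1h, 1.32% for Atp6v0c and 2.04% for Psap, and by 65.2% for Galc.

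**Figure D1:**
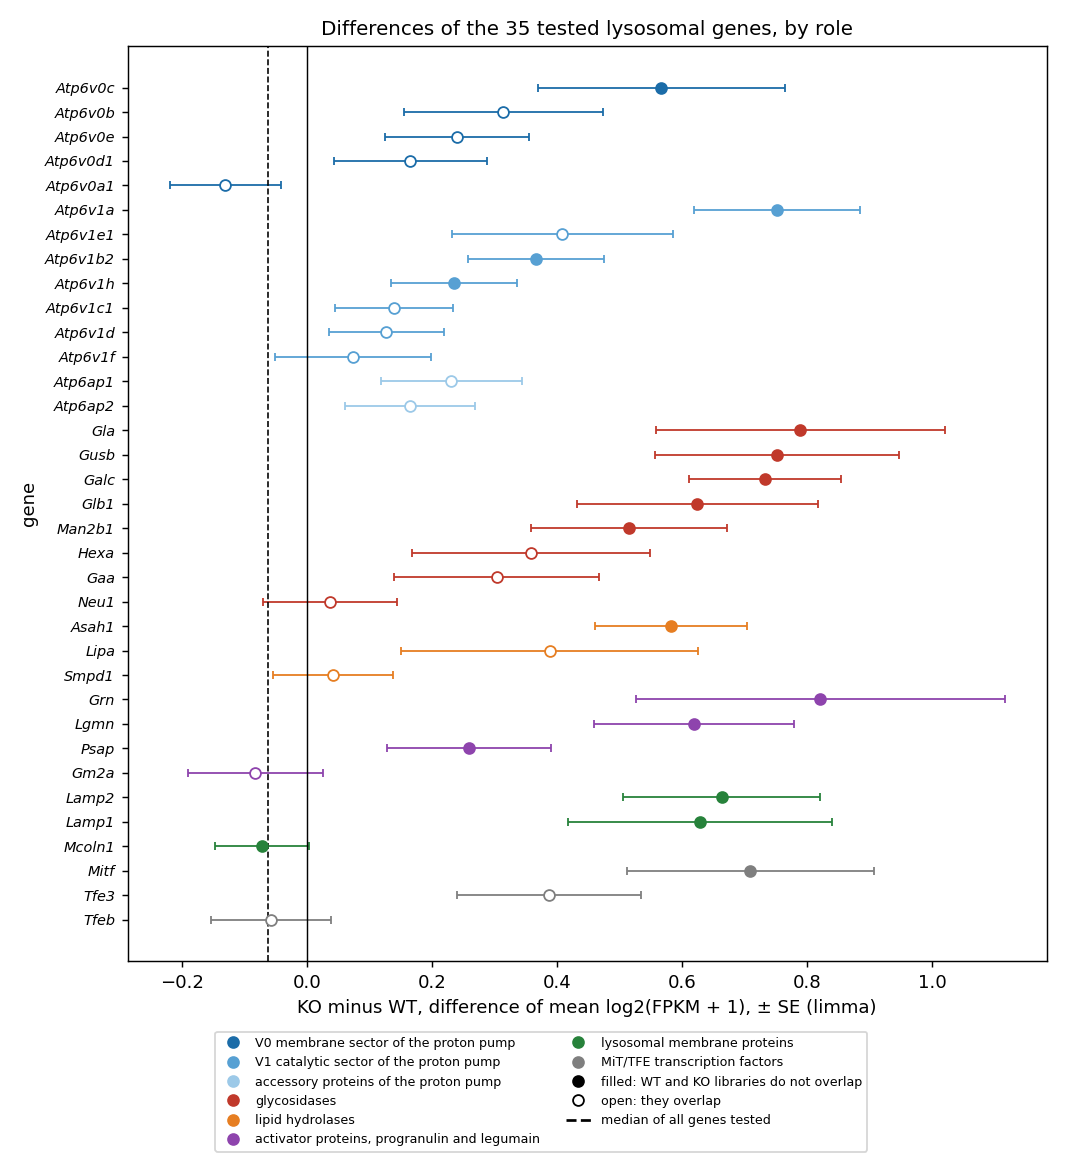
Difference between the means of the KO-labelled and WT-labelled libraries on log2(FPKM + 1), with its limma standard error (n = 3 libraries per group), for the 35 genes tested, coloured by role. Filled points mark the 17 genes whose libraries did not overlap between groups, 16 higher and Mcoln1 lower, and the dashed line is the median of all genes tested, -0.06.

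**Figure D2:**
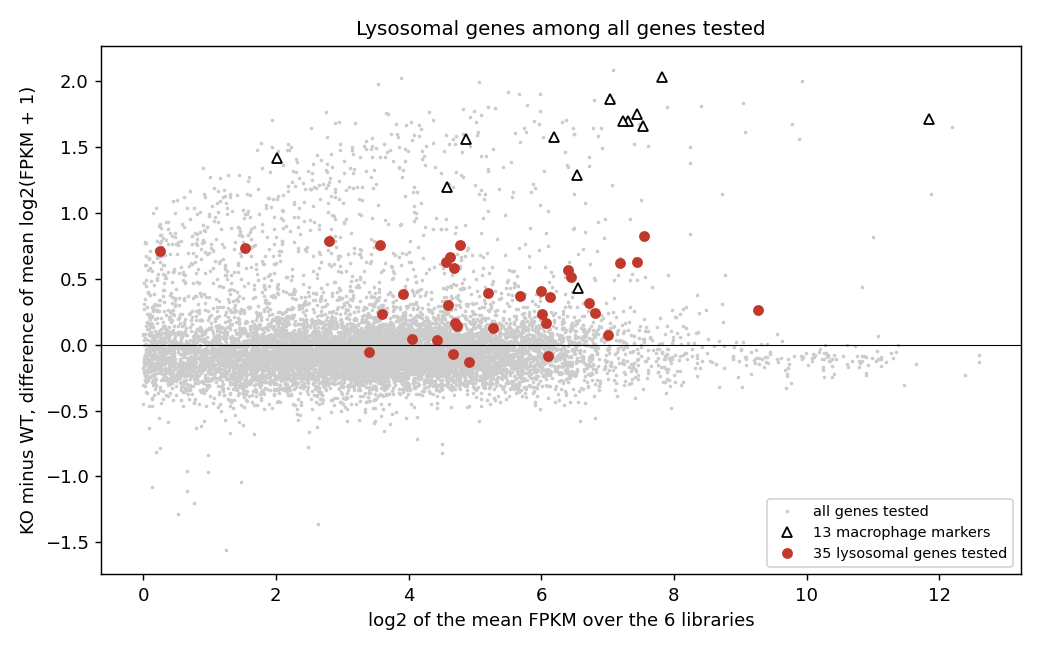
Mean level (log2 of FPKM, horizontal) against the KO minus WT difference on log2(FPKM + 1) (vertical) for all 10732 genes tested (grey), the 35 lysosomal genes (red) and 13 macrophage markers (open triangles). The lysosomal genes run from -0.13 to 0.82 and the macrophage markers from 0.43 to 2.03.

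Macrophage markers had higher means in the same libraries as these genes. All 13 had positive differences with a median of 1.65, and 0 were called. An unadjusted limma p under 0.05 was reached by 12 (92.3%), beside 8.86% of all genes tested for higher values. Of 16 tested peritoneal macrophage markers 15 were positive, with a median of 1.68, and 1, F5, was called higher. The summed level of the 11 microglia markers overlapped, from 94.7 to 118 FPKM and from 102 to 117 FPKM. The summed peritoneal macrophage markers lay between 1585 and 5401 FPKM in the WT-labelled and between 6541 and 13918 FPKM in the KO-labelled libraries. The median difference was -0.23 over the 10 B cell markers and -0.36 over 9 tested T and NK cell markers. All 11 T and NK cell markers in the tables summed to between 378 and 471 FPKM and between 345 and 385 FPKM. Mast cell markers summed to between 10.3 and 558 FPKM in the WT-labelled and between 107 and 468 FPKM in the KO-labelled libraries. The 5 neutrophil markers, 3 of them at 0 in some library, summed to between 3.01 and 13.7 FPKM and between 14.1 and 21.6 FPKM. Dendritic cell markers summed to between 123 and 135 FPKM and between 111 and 123 FPKM. In bulk RNA a larger number of cells of a type and more RNA per cell cannot be told apart. The part of cell content in the differences of the lysosomal genes was not tested.

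Within each group the lysosomal genes ordered the libraries much as the macrophage markers did. The mean log2(FPKM + 1) of the 13 macrophage markers was 5.55, 6.47 and 5.01 in the WT-labelled libraries 1 to 3 and 7.73, 7.06 and 6.83 in the KO-labelled libraries. That of the 35 lysosomal genes was 5.02, 5.20 and 4.91 and then 5.64, 5.33 and 5.26. WT-labelled library 2 was the highest of its group for both lists, library 3 the lowest, and KO-labelled library 1 the highest of all. Gene by gene, WT-labelled library 2 was the highest of its group for 26 of 35 lysosomal genes (74.3%), beside 41.7% of all genes tested. KO-labelled library 1 was the highest of its group for 33 of 35 (94.3%), beside 33.4% of all genes tested. The lysosomal genes spanned a narrower range than the markers: the difference between group means of these scores was 0.36 for the lysosomal genes and 1.53 for the macrophage markers.

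**Figure D3:**
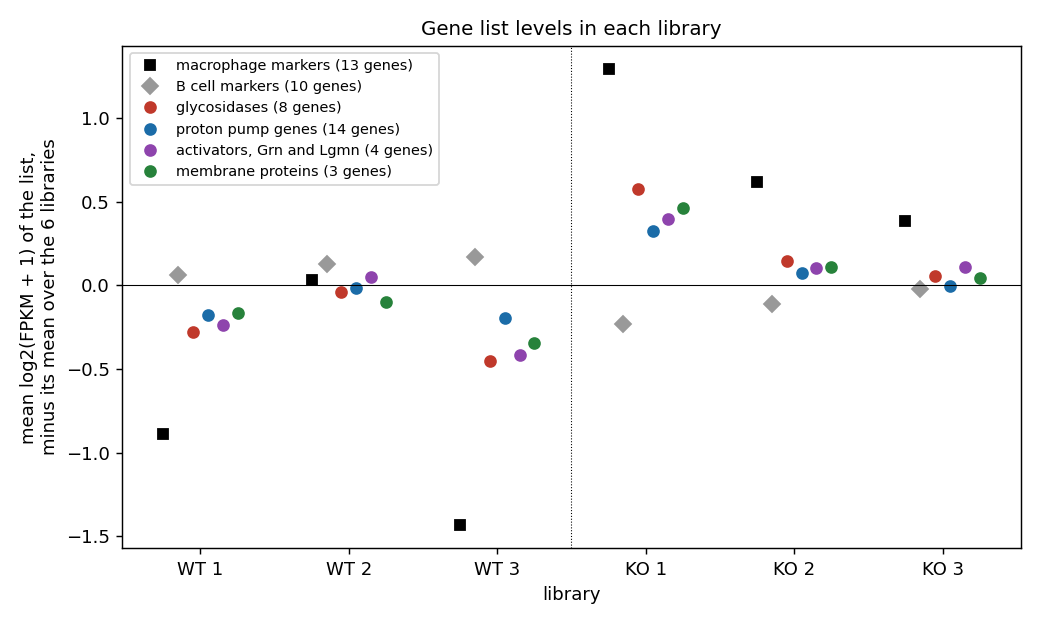
Mean log2(FPKM + 1) of each gene list minus its own mean over the 6 libraries (vertical) in each library (horizontal), as 1 point per list and library. KO-labelled library 1 is highest for the macrophage markers and for the 4 lysosomal lists plotted, WT-labelled library 3 is lowest for the same lists, and the B cell markers run the other way.

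The proton pump genes had a lower median difference than each of the other roles. Among the 14 tested pump genes 13 had positive differences, and the median was 0.23. An unadjusted limma p under 0.05 was reached by 3 (21.4%), beside 8.86% of all genes tested for higher values. The largest difference was that of Atp6v1a, which encodes the catalytic A subunit of the V1 sector (chromosome 16 from 44085402 to 44139705, minus strand of mm10). Atp6v1a stood at 20.2, 21.2 and 18.8 FPKM in the WT-labelled libraries 1 to 3 and at 42.1, 32.5 and 29.7 FPKM in the KO-labelled libraries 1 to 3. The WT-labelled libraries were close together and the lowest KO-labelled library stood 40.5% above the highest of them. The mean went from 20.1 ± 1.1995 to 34.8 ± 6.48 FPKM (SD, n = 3), a 1.74-fold higher level with a log2 difference of 0.75 (SE 0.13, adjusted p = 0.106 by limma).

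Its partner Atp6v1b2, the B subunit that alternates with A in the catalytic ring, stood at 44.4, 45.7 and 43.6 FPKM in the WT-labelled and at 66.6, 56.9 and 50.7 FPKM in the KO-labelled libraries. The groups did not overlap, and the log2 difference was 0.37 (SE 0.11, adjusted p = 0.172 by limma). The level of Atp6v1a per level of Atp6v1b2 was 0.456, 0.463 and 0.430 in the WT-labelled and 0.632, 0.572 and 0.586 in the KO-labelled libraries, a ratio chosen after its values were seen and given without a test. The ratio was higher in each KO-labelled library than in each WT-labelled one. Atp6v1h, a regulatory subunit that links V1 to V0, stood at 10.5, 11.99 and 10.8 FPKM and then at 14.8, 12.8 and 12.1 FPKM. Its groups were separated by the 1.02% given above.

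The other V1 genes overlapped between groups. Atp6v1e1, a subunit of the peripheral stalk, had means of 54.6 ± 9.31 and 73.3 ± 16.2 FPKM (SD, n = 3) with an adjusted limma p of 0.298. Atp6v1c1, Atp6v1d and Atp6v1f, of the stalks and the rotor, had log2 differences of 0.14, 0.13 and 0.07. Atp6v1f was the most abundant pump gene, with a mean of 128 FPKM over the 6 libraries, and Atp6v1h the least abundant of the V1 genes at 12.2 FPKM.

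In the V0 sector Atp6v0c, which encodes the subunit that makes up most of the proton-carrying ring, stood at 65.7, 79.9 and 57.004 FPKM in the WT-labelled and at 132, 92.2 and 80.9 FPKM in the KO-labelled libraries. Only KO-labelled library 1 stood clear of the rest. The log2 difference was 0.57 (SE 0.20, adjusted p = 0.222 by limma). The annotation holds 2 pseudogenes named after Atp6v0c, so its reads may be shared with near-identical copies. Atp6v0b, the other ring subunit, and Atp6v0e, a small membrane subunit, overlapped between groups, with log2 differences of 0.31 and 0.24.

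The large a subunit of V0 is made from alternative genes that direct the pump to different membranes. Atp6v0a1 was the pump gene with the lowest difference, at 31.5, 29.2 and 33.8 FPKM in the WT-labelled and 26.8, 29.3 and 29.9 FPKM in the KO-labelled libraries (log2 difference -0.13, SE 0.09, adjusted p = 0.491 by limma). Its groups overlapped through WT-labelled library 2. The alternative a subunit genes Atp6v0a2 and Tcirg1, the latter the form of osteoclasts and of secretory lysosomes, were named after their values were seen. Atp6v0a2 had means of 15.9 ± 0.871 and 16.1 ± 0.817 FPKM and Tcirg1 of 59.6 ± 1.45 and 60.7 ± 6.00 FPKM (SD, n = 3). Of the 3 a subunit genes Tcirg1 thus had the highest level in both groups.

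The d subunit joins V0 to the V1 rotor and also has alternative genes, Atp6v0d1 in most cells and Atp6v0d2 in osteoclasts and some macrophages. Atp6v0d1 stood at 62.2, 72.7 and 56.1 FPKM in the WT-labelled and at 80.0, 68.2 and 65.7 FPKM in the KO-labelled libraries, with overlapping groups. Atp6v0d2 was represented by 4, 14 and 4 reads (0.0271, 0.0930 and 0.0283 FPKM) and by 36, 7 and 9 reads (0.231, 0.0459 and 0.0622 FPKM). It made up 0.0739 ± 0.0468% of the d subunit transcripts in the WT-labelled and 0.150 ± 0.120% in the KO-labelled libraries (SD, n = 3, exact two-sided permutation p = 0.5, with 0.1 as the lower limit of this test). The difference of 0.0758 percentage points was 0.00705 without KO-labelled library 1 and 0.117 without KO-labelled library 2. The share in KO-labelled library 1 was above those of the other 5 libraries, which overlapped between groups.

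The accessory proteins Atp6ap1, an assembly factor and subunit of V0, and Atp6ap2, the prorenin receptor, had log2 differences of 0.23 and 0.16, with overlapping groups. Summed over its 15 genes, the pump took 1829, 1920 and 1763 ppm of all FPKM in the WT-labelled libraries and 2434, 2108 and 1980 in the KO-labelled ones. Each KO-labelled library lay above each WT-labelled one, by a ratio of means of 1.18 (exact two-sided permutation p = 0.1, the smallest possible here). The difference of 337 ppm was 206 without KO-labelled library 1.

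**Figure D4:**
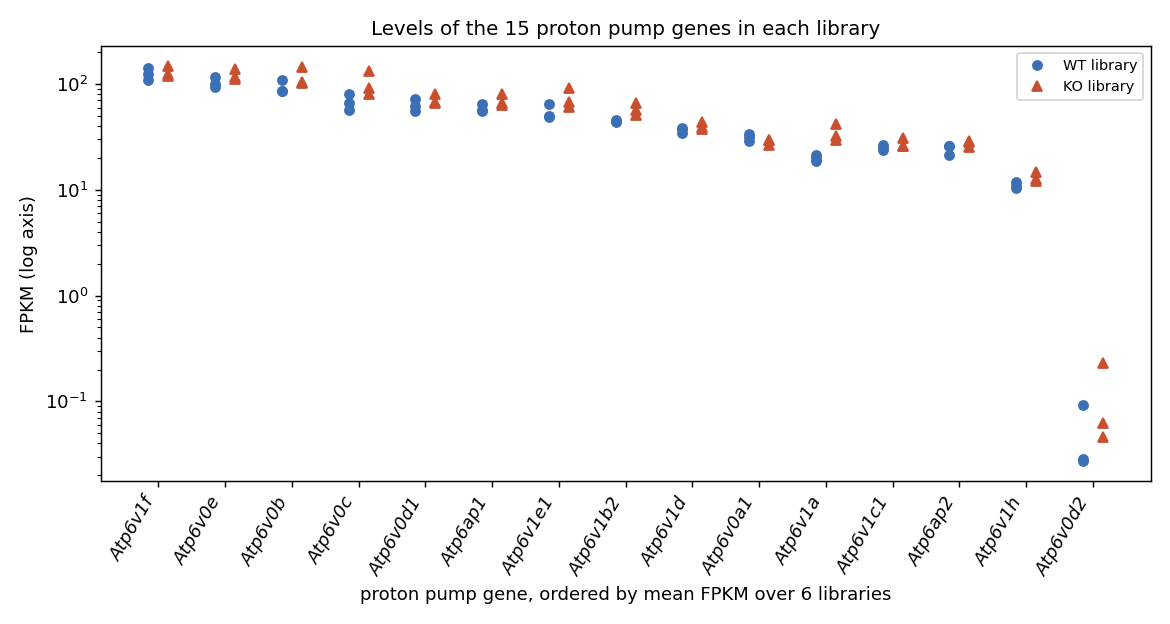
FPKM (vertical, log axis) of the 15 proton pump genes (horizontal, ordered by mean level) in each WT-labelled library (circles) and KO-labelled library (triangles). Levels run from 149 FPKM for Atp6v1f down to 10.5 FPKM for Atp6v1h, and Atp6v0d2 stays at or below 0.231 FPKM.

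Glycosidases, which remove sugars from glycoproteins, glycolipids and glycogen, had positive differences for all 8 genes, with a median of 0.57. An unadjusted limma p under 0.05 was reached by 5 of them (62.5%), beside 8.86% of all genes tested for higher values. The same number had KO-labelled libraries above the WT-labelled ones without overlap, beside 9.75% of all genes tested. Galc encodes galactosylceramidase, the enzyme that degrades the myelin lipid galactosylceramide (chromosome 12 from 98202294 to 98259459, minus strand). Galc stood at 2.13, 2.05 and 1.59 FPKM in the WT-labelled and at 4.42, 3.52 and 3.62 FPKM in the KO-labelled libraries. Every KO-labelled library was above every WT-labelled one with the widest gap of the 16. The mean went from 1.92 ± 0.295 to 3.86 ± 0.492 FPKM (SD, n = 3), 2.01-fold, with a log2 difference of 0.73 (SE 0.12, adjusted p = 0.0971 by limma).

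Gla, α-galactosidase A, which removes terminal galactose from globotriaosylceramide, stood at 4.23, 5.95 and 4.05 FPKM and then at 13.03, 7.72 and 6.75 FPKM. KO-labelled library 1 was far above the other 5, which lay between 4.05 and 7.72 FPKM, and the log2 difference was 0.79 (SE 0.23, adjusted p = 0.169 by limma). Gusb, β-glucuronidase, which acts on glycosaminoglycans, stood at 8.34, 10.96 and 6.58 FPKM in the WT-labelled and at 18.7, 14.1 and 12.6 FPKM in the KO-labelled libraries (log2 difference 0.75, SE 0.20, adjusted p = 0.141 by limma). WT-labelled library 2 was the nearest of its group to the KO-labelled libraries, as for Gla.

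Glb1, the lysosomal β-galactosidase, stood at 17.6, 20.7 and 16.1 FPKM and then at 38.8, 25.6 and 22.9 FPKM. Man2b1, the lysosomal α-mannosidase, was the most abundant glycosidase of the list, at 67.7, 88.2 and 61.2 FPKM and then at 119.6, 97.1 and 93.1 FPKM. Both were separated between groups, with log2 differences of 0.62 and 0.52 and adjusted limma p-values of 0.188 and 0.182. Hexa, which takes part in the breakdown of GM2 ganglioside, and Gaa, acid α-glucosidase, which degrades glycogen, overlapped between groups with log2 differences of 0.36 and 0.30. Neu1, the lysosomal sialidase, had nearly equal means of 21.2 ± 1.73 and 21.8 ± 2.56 FPKM (SD, n = 3, log2 difference 0.04, SE 0.11).

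Among the 3 lipid hydrolases Asah1, acid ceramidase, which splits ceramide into sphingosine and fatty acid, had groups that did not overlap. Asah1 (chromosome 8 from 41340197 to 41374773, minus strand) stood at 19.8, 23.0 and 18.2 FPKM in the WT-labelled and at 35.3, 28.2 and 29.4 FPKM in the KO-labelled libraries. The lowest KO-labelled library stood 22.3% above the highest WT-labelled one, and the log2 difference was 0.58 (SE 0.12, adjusted p = 0.107 by limma). Smpd1, acid sphingomyelinase, which makes the ceramide that Asah1 removes, had means of 16.3 ± 1.76 and 16.8 ± 0.712 FPKM (SD, n = 3) and a log2 difference of 0.04 (SE 0.10). Lipa, the acid lipase that releases cholesterol and fatty acids from lipoprotein, had means of 31.3 ± 5.11 and 42.5 ± 15.2 FPKM, and KO-labelled library 1 alone stood at 59.6 FPKM. The glycosidases, the lipid hydrolases and legumain together took 965, 1043 and 830.5 ppm of all FPKM in the WT-labelled and 1548, 1215 and 1182 in the KO-labelled libraries. The groups did not overlap, with a ratio of means of 1.39 (exact two-sided permutation p = 0.1, the smallest possible here). Summed hydrolases per summed pump FPKM came to 0.528, 0.543 and 0.471 and then to 0.636, 0.576 and 0.597, a ratio chosen after its values were seen and given without a test.

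The other luminal proteins included the most abundant transcript of the list. Psap encodes prosaposin, the precursor of saposins that present glycolipids to hydrolases. It stood at 600.05, 576 and 501 FPKM in the WT-labelled and at 787, 616 and 612 FPKM in the KO-labelled libraries, with a log2 difference of 0.26 (SE 0.13, adjusted p = 0.368 by limma). The gap between the groups was 2.04%, and KO-labelled library 1 alone stood clear. Gm2a, the activator that lifts GM2 ganglioside out of the membrane for its breakdown, went the other way in its means, 71.1 ± 8.68 and 66.8 ± 3.30 FPKM (SD, n = 3), with overlapping groups.

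Grn encodes progranulin, a secreted and lysosomal glycoprotein whose loss causes neurodegeneration,. It stood at 138, 193.7 and 83.0 FPKM in the WT-labelled and at 288, 222 and 193.9 FPKM in the KO-labelled libraries. WT-labelled library 2 and KO-labelled library 3 were nearly equal, and the log2 difference of 0.82 had an SE of 0.30 (adjusted p = 0.233 by limma). It was 0.50 without WT-labelled library 3. Lgmn, legumain, an asparagine-specific protease that matures cathepsins, stood at 105, 138 and 101 FPKM and then at 211, 154 and 166 FPKM (log2 difference 0.62, SE 0.16, adjusted p = 0.141 by limma). Its lowest KO-labelled library stood 11.5% above its highest WT-labelled one.

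The LAMP proteins coat the inner face of the lysosomal membrane, and both had groups that did not overlap. Lamp1 (chromosome 8 from 13159161 to 13175338, plus strand) stood at 135, 165 and 108 FPKM in the WT-labelled and at 277, 188 and 173 FPKM in the KO-labelled libraries (log2 difference 0.63, SE 0.21, adjusted p = 0.210 by limma). Lamp2 (chromosome X from 38401357 to 38456454, minus strand), whose product also takes part in autophagy, stood at 20.4, 19.3 and 16.3 FPKM and then at 38.1, 27.3 and 25.9 FPKM (log2 difference 0.66, SE 0.16, adjusted p = 0.120 by limma). Lamp1 per Lamp2 lay between 6.64 and 8.56 in every library with overlapping groups. Mcoln1, the calcium release channel of the lysosome, stood at 25.8, 25.3 and 27.5 FPKM and then at 25.3, 24.6 and 24.7 FPKM. WT-labelled library 2 and KO-labelled library 1 were both near 25.3 FPKM, so the groups only just failed to overlap, with a log2 difference of -0.07 (SE 0.07, adjusted p = 0.648 by limma).

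**Figure D5:**
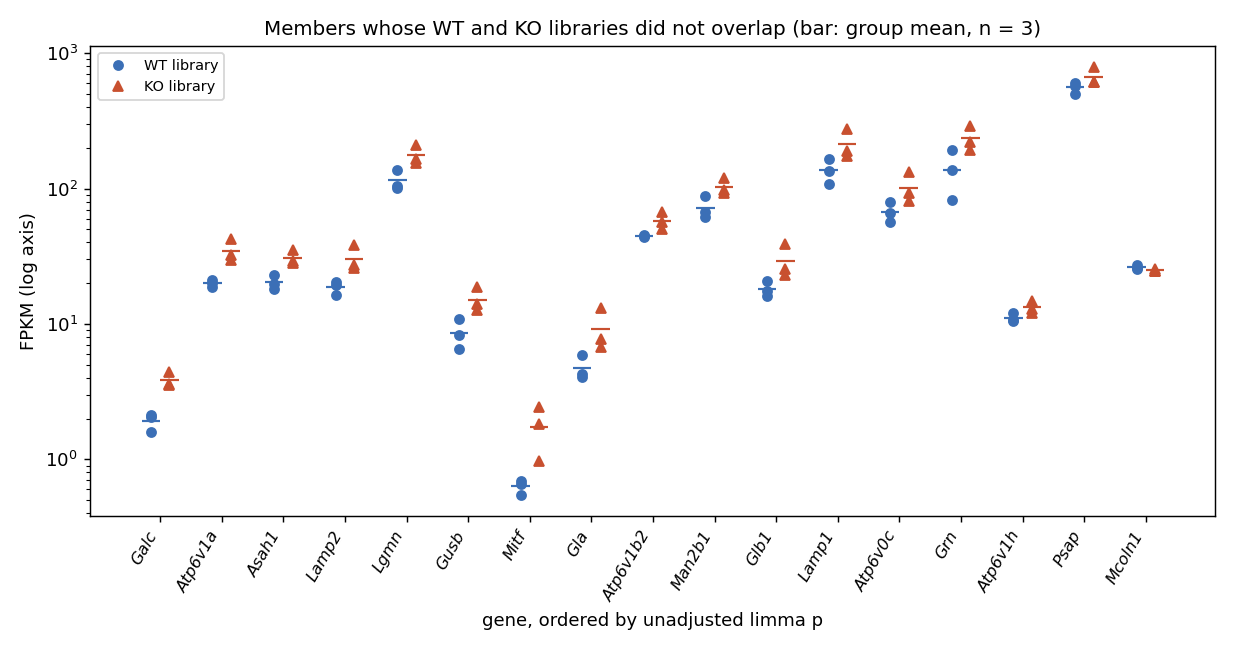
FPKM (vertical, log axis) in each library for the 17 genes whose WT-labelled (circles) and KO-labelled (triangles) libraries did not overlap, ordered by unadjusted limma p, with the mean of each group of 3 as a bar. Galc and Atp6v1a have the widest gaps, 65.2% and 40.5%, and Mcoln1 is the 1 gene with lower KO-labelled libraries.

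The 3 transcription factors of the family differed from each other. Tfeb stood at 10.9, 11.8 and 9.82 FPKM in the WT-labelled and at 10.8, 9.55 and 10.7 FPKM in the KO-labelled libraries, with overlapping groups and a log2 difference of -0.06 (SE 0.10, adjusted p = 0.778 by limma). Tfe3 stood at 12.5, 16.0 and 10.6 FPKM and then at 18.9, 16.6 and 15.9 FPKM, where only WT-labelled library 2 overlapped with the KO-labelled ones (log2 difference 0.39, SE 0.15, adjusted p = 0.253 by limma). The level of Tfe3 per level of Tfeb was 1.14, 1.36 and 1.08 in the WT-labelled and 1.75, 1.73 and 1.49 in the KO-labelled libraries, a ratio chosen after its values were seen and given without a test. Mitf (chromosome 6 from 97807052 to 98021349, plus strand) was the least abundant, at 0.661, 0.696 and 0.550 FPKM and then at 2.43, 1.82 and 0.975 FPKM, from 261, 280 and 208 reads and 1014, 740 and 377 reads. Its mean was 2.74-fold higher in the KO-labelled libraries, and the log2 difference of 0.71 (SE 0.20, adjusted p = 0.153 by limma) understates this because 1 was added to low values. These are transcript levels, and the activity of the factors depends on where their proteins are in the cell, which was not measured.

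The promoters of these genes were searched for the motif of the MiT/TFE factors, because the sequence shows which members carry the core letters that the factors bind. RefSeq promoters of GRCm38.p6, from 250 bases before to 50 bases after a transcription start, were given for 31 of the 36 genes as 40 promoters, and both strands were searched. The motif core CACGTG, which reads the same on both strands, was in 10 of the 40 promoters (25%), 1 for each of 10 genes, beside 7.15% of all 32851 promoters and 10.2% of the 10913 promoters of genes tested. With a T before and an A after it, TCACGTGA, it was in 5 (12.5%), beside 0.974% of all promoters and 2.04% of those of genes tested. With a further G before and C after that, a form that contains both shorter ones, it was in 0 of the 40, beside 0.326% of all promoters. A match is a description of the sequence and does not show binding.

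The 10 genes with the core were Atp6v0b, Atp6v0d1, Atp6v0e, Atp6v1a, Gaa, Glb1, Gla, Lgmn, Lamp1 and Mcoln1, and their median log2 difference was 0.47, from -0.07 to 0.79. The 21 genes with a promoter and without the core had a median of 0.36, from -0.13 to 0.82. The groups did not overlap, with higher KO-labelled libraries, for 5 of the 10 and for 8 of the 21, beside 9.75% of all genes tested. Galc, Gusb, Grn and Lamp2 were among those without the core in this window.

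The stretches shown are those of the 6 genes with the core and with groups that did not overlap, including Mcoln1, whose levels hardly differed. Only bases outside annotated exons are printed, and a match that lies in an exon is shown as a site of 30 bases. All read 5′ to 3′ on the strand of the gene, and capitals mark CACGTG. The Lamp1 stretch (chr8:13158911-13159160, plus strand) holds the core at 61, 45, 28 and 15 bases before the start.
Lamp1: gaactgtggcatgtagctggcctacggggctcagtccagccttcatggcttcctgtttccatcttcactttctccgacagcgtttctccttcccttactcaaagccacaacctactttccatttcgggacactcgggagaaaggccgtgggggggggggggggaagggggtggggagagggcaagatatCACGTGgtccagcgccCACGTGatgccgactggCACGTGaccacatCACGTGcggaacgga
The Atp6v1a stretch (chr16:44139306-44139461, minus strand) lies between annotated exons of the gene and has the core 131 bases before the RefSeq start, inside TCACGTGA.
Atp6v1a: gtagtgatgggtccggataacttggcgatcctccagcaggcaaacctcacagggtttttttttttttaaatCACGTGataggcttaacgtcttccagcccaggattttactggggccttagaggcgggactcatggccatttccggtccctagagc
Gla has the core at 227 and 194 bases before its start, each inside TCACGTGA, at chrX:134601215-134601244 and chrX:134601182-134601211 on the minus strand. Both sites lie in an exon of the neighbouring gene Hnrnph2, which is read in the opposite direction.
Gla, distal site: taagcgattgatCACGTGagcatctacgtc
Gla, proximal site: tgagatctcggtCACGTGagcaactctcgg
The Glb1 stretch (chr9:114400828-114401075, plus strand) has the core 48 bases before the start.
Glb1: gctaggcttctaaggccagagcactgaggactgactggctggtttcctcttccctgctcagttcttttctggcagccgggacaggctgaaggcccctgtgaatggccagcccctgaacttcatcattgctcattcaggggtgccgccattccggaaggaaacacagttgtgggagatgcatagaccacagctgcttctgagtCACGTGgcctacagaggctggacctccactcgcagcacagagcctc
The Lgmn stretch (chr12:102439093-102439342, minus strand) belongs to the second of its RefSeq starts, inside the gene and outside its annotated exons, with the core 49 bases before that start.
Lgmn: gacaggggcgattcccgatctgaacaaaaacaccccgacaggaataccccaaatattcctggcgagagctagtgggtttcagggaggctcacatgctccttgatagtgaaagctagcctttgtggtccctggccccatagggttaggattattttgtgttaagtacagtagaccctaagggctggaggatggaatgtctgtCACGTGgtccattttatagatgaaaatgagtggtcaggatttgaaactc
The Mcoln1 stretch (chr8:3500269-3500456, plus strand) has the core 71 bases before the start. Its second match, 45 bases before the start and inside TCACGTGA, lies in an exon of Mcoln1 (chr8:3500462-3500491).
Mcoln1: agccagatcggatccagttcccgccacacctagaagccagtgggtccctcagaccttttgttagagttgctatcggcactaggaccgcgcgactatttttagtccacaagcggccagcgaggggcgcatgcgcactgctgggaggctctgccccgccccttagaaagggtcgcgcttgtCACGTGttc
Mcoln1, second site: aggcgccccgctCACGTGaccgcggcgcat
These sequences differ in how many cores they carry, from 1 to 4, and a relation of this number to the difference was not tested. Lamp1 with 4 had a log2 difference of 0.63, Atp6v1a, Glb1 and Lgmn with 1 had 0.75, 0.62 and 0.62, and Gla and Mcoln1 with 2 had 0.79 and -0.07.

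Lysosomal genes outside the list of 36 were described with lists of other pump subunits, hydrolases, membrane proteins, sorting factors and nutrient-sensing regulators. Over these lists 81 genes were tested, and 0 were called by limma in either direction. At an unadjusted limma p under 0.05, 20 were higher (24.7%), beside 8.86% of all genes tested, and 2 were lower, beside 8.21%. The median log2 difference of the 81 was 0.10, beside 0.36 over the 35 and -0.06 over all genes tested. The 4 tested pump subunits had a median of 0.02, and the smallest p belonged to Atp6v1g2 and Atp6v1g1, of the peripheral stalk, with log2 differences of -0.09 and 0.10.

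Among 29 other hydrolases, 7 were higher at an unadjusted limma p under 0.05 (24.1%, beside 8.86% of all genes tested). The median was 0.14. Arsg, an arylsulfatase that acts on heparan sulfate, stood at 1.187, 1.19 and 1.197 FPKM in the WT-labelled and at 3.03, 2.33 and 2.04 FPKM in the KO-labelled libraries (adjusted p = 0.106 by limma). Acp2, the lysosomal acid phosphatase, stood at 5.22, 7.68 and 3.22 FPKM and then at 16.8, 12.9 and 10.1 FPKM (adjusted p = 0.119 by limma). Both were separated between groups.

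Among 23 other membrane proteins, 7 were higher at an unadjusted limma p under 0.05 (30.4%, beside 8.86% of all genes tested). In the other direction 1 was lower, beside 8.21% of all genes, and the median was 0.12. The related cation channels Tpcn1 and Tpcn2 of the endolysosomal membrane had differences of opposite sign. Tpcn1 had means of 9.48 ± 0.673 and 7.46 ± 0.335 FPKM and Tpcn2 of 4.97 ± 0.694 and 6.81 ± 0.638 FPKM (SD, n = 3), with adjusted limma p-values of 0.155 and 0.168 and no overlap between groups for either.

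Sorting factors carry new hydrolases to the lysosome. At an unadjusted limma p under 0.05, 3 of 10 were higher (30%, beside 8.86% of all genes tested) and 1 was lower (beside 8.21%). Sort1, sortilin, a sorting receptor that binds prosaposin and progranulin, stood at 2.10, 2.30 and 1.10 FPKM in the WT-labelled and at 9.78, 7.12 and 4.82 FPKM in the KO-labelled libraries. The mean was 3.94-fold higher with a log2 difference of 1.52 (SE 0.25, adjusted p = 0.0987 by limma), which exceeded that of each of the 35. Gga3, an adaptor for mannose 6-phosphate receptors, had means of 32.9 ± 1.26 and 25.9 ± 3.31 FPKM (SD, n = 3), with an adjusted p of 0.189 by limma. Of 15 tested regulators 3 were higher at an unadjusted limma p under 0.05 (20%, beside 8.86% of all genes tested). Their median was 0.01. Tfec, a macrophage member of the MiT/TFE family, had means of 1.16 ± 0.654 and 3.19 ± 1.63 FPKM and Lamtor4, part of the complex that anchors mTORC1 to the lysosome, of 39.5 ± 8.65 and 53.0 ± 8.51 FPKM (SD, n = 3), with adjusted limma p-values of 0.195 and 0.265.

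Single libraries moved the counts. Without WT-labelled library 2, limma called 7 of the 35 higher (Atp6v1a, Gusb, Galc, Man2b1, Asah1, Lgmn and Tfe3), when 500 genes in all (4.66%) were called higher. At that setting 25 of the 35 lay above the remaining WT-labelled libraries without overlap, beside 18.4% of all genes tested. Array weights, which down-weight libraries that stand apart, also gave 7 (Atp6v1a, Gusb, Galc, Man2b1, Asah1, Lgmn and Lamp2), among 544 genes (5.07% of all genes tested). Without KO-labelled library 1 the median of the 35 was 0.16 and 0 were called. Of the 36 genes, 11 overlap another annotated gene, among them Galc, Lamp1, Grn, Glb1 and Atp6v1h. No strand setting is stated, so reads of genes that overlap on opposite strands may be shared. Glb1 overlaps Tmppe on the same strand, where a strand setting would not separate their reads.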

How the data were processed

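Each library has 1 table of 21399 gene symbols, whose deposited values are FPKM. The genome build named is mm10, per the submitters' processing notes. For the aligner, the counter and the strand setting, the entry is: not given in the sources used here. Each library is labelled WT or KO with a replicate number in its title.

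The test was limma (version 3.58.1, run under R 4.3.3, moderated with a mean-variance trend) on log2(FPKM + 1) for genes averaging 1 FPKM or more, with no further scaling and Benjamini-Hochberg adjustment over all 10732 genes at 0.05. For summed levels and shares, libraries were permuted exactly, two-sided. Whole reads were recovered from the FPKM steps. All 18092 genes above 0 in at least 3 libraries came out whole within 0.003 reads, and a factor common to a gene's counts cannot be seen. These reads give the counting precision and served voom. The tests were checked on simulated data.

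The members, gene lists and marker lists were chosen with earlier results of these data known. All 36 members are reported, with every library for those whose groups did not overlap, for Atp6v0d1 and Atp6v0d2 and for the MiT/TFE factors. Of each other lysosomal list the 2 genes with the smallest p are named. Atp6v0a2, Tcirg1 and 4 marker genes (Sall1, P2ry12, Tmem119 and F5) are named beyond this rule. Positions came from GENCODE M21 (mm10), and promoters from RefSeq (GRCm38.p6). Alternatives were pseudocounts of 0.1 and 5, no filter or a filter at 5 FPKM, 3 other scalings, variance settings, array weights, a replicate block, voom and leaving out each library. Tables were handled with Python 3.11.15 and pandas 2.3.3.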

Additional observations from a re-analysis of the deposited data

How the results depend on the processing

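No setting called a member lower, and members were called higher only with array weights (7, beside 5.07% of all genes) and without WT-labelled library 2. Leaving out each library in turn gave 0 to 7 members called higher (0 to 4.66% of all genes). It gave 11 to 21 at an unadjusted limma p under 0.05 (6.31 to 12% of all genes), 16 to 25 with groups apart (11.1 to 18.4% of all genes), and a median of 0.16 to 0.44. Over all genes, limma called 6 higher with a pseudocount of 5, 0 with no filter, 544 with array weights (68 lower), 11 with the replicate block, 5 by voom, and 0 to 500 higher and 0 to 38 lower without single libraries. The log2 differences of Atp6v1f (-0.0222 to 0.16), Neu1 (-0.0535 to 0.10) and Smpd1 (-0.0088 to 0.12) changed sign as single libraries were left out. The cause was not tested. With the replicate number as a block 0 members were called. The summed pump and hydrolase differences stayed at 337 and 369 ppm (exact permutation p within numbers 0.25 for both, the smallest possible here). That of the Atp6v0d2 share stayed at 0.0758 percentage points. Same-numbered libraries had correlations of -0.208, -0.376 and 0.273 between their deviations from the group means. Not every library correlated best with its own number. The deviations within a group of 3 depend on each other, so these values cannot decide whether same-numbered libraries share more than a number. Under the 3 scalings 19, 21 and 17 members had higher KO-labelled libraries without overlap (9.82, 13 and 9.96% of all genes), and Mcoln1 was no longer apart. Few reads stand behind Atp6v0d2, at most 36 in a library.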
